A study of Mus musculus with 14 samples.

Results

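The regions described here carried a FLAG peak in all 3 K27M-Tag cultures and in none of the 3 WT-Tag cultures, and lay more than 5000 bp from every H3K4me3 peak of the study. They were chosen by merging the 6 FLAG peak lists on chromosomes 1 to 19 where peaks share 1 bp, and by keeping the regions that met both conditions. This gave 2728 regions of 116516 FLAG regions in all, and they are called far K27M-Tag-only regions below. Because presence in the FLAG lists chose them, the FLAG contrast between genotypes at these regions is a description and carries no test. All positions are in mouse build mm9.

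The lists come from ChIP-seq for FLAG and for H3K4me3 in mouse neural stem cells, cultured as neurospheres and taken from the hindbrain at e15.5 (embryonic day). The K27M-Tag cultures had the genotype Nestin-cre; H3f3aLSL-K27M-Tag/+ and the WT-Tag cultures Nestin-cre; H3f3aLSL-WT-Tag/+, with 3 cultures of each, and each culture gave 1 FLAG and 1 H3K4me3 library. All 6 cultures shared Nestin-cre, whose promoter is active in neural progenitors, and all kept 1 H3f3a allele without the tag. By its label, 1 culture was male, WT-Tag replicate 3, and the other 5 were female. No untagged culture was analysed here, so the FLAG signal without a tagged histone is not known. The identity of the cells was not checked against marker genes, since no annotation of build mm9 was used.

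Histone H3.3, encoded by H3f3a and H3f3b, is placed into chromatin outside DNA replication, at promoters, in transcribed gene bodies and at enhancers, and also at repeats near telomeres and centromeres. The K27M substitution replaces the lysine that Polycomb repressive complex 2 methylates and lowers that methylation across the genome, and it is a founding mutation of diffuse midline glioma. H3K4me3 marks active promoters, so a FLAG peak more than 5 kb from any H3K4me3 peak is distal to the promoters marked in these cells. A FLAG peak reports tagged histone, not the mutation as such.

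The FLAG lists held 57589 to 88285 peaks in K27M-Tag and 32763 to 47293 in WT-Tag, so the K27M-Tag lists were the longer ones, and each list ended where its own values reached the caller's limit. The H3K4me3 lists held 35366 to 38720 and 31932 to 32504 peaks. Read totals are not given in the lists. The background coverage recovered from the deposited fold and p was 3.16 to 3.60 fragments per base in the K27M-Tag FLAG libraries and 3.09 to 3.45 in the WT-Tag ones. These ranges overlapped, but they do not give the sequencing depth, since the scaling of the background is not known.

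Of the 46893 FLAG regions more than 5000 bp from H3K4me3, the far K27M-Tag-only regions were 5.82%. Over all FLAG regions, near and far, the regions found only in K27M-Tag were 11527, or 9.89%, so they made up a smaller share far from H3K4me3 than over the whole set. Of these 11527, 6961 overlapped an H3K4me3 peak and 1838 lay 1 to 5000 bp from one. The reverse class, present in every WT-Tag list and absent from every K27M-Tag list, held 450 far regions, or 0.960% of the far ones, and 684 regions, or 0.587%, of all.

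**Figure D1:**
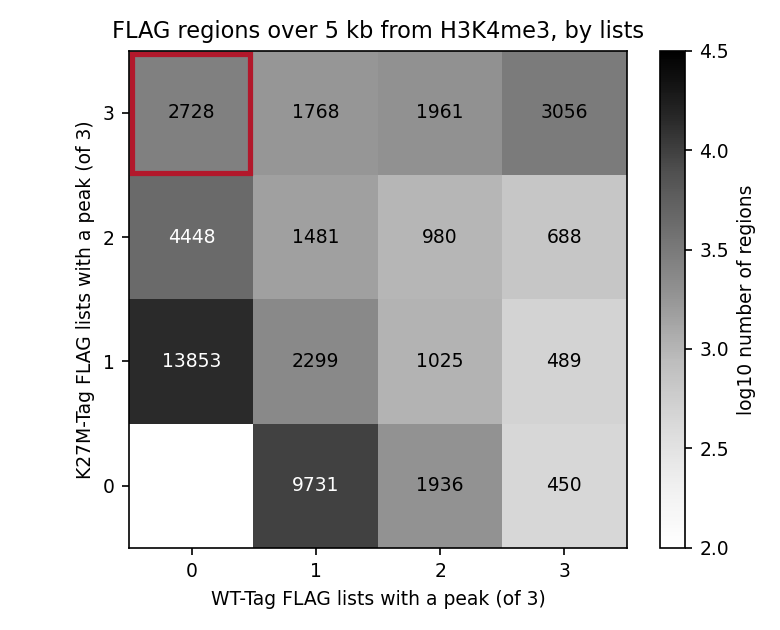
Number of FLAG regions more than 5 kb from H3K4me3, by the number of K27M-Tag lists (vertical) and WT-Tag lists (horizontal) with a peak there. Shading gives the log10 number, and the red frame marks the 2728 far K27M-Tag-only regions, against 450 in the opposite corner and 3056 in all 6 lists.

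The excess over the reverse class changed with how the lists were cut, and the cause was not tested. Keeping the highest-scoring 50% of every FLAG and H3K4me3 list leaves the K27M-Tag lists the longer ones and also changes which regions count as far. It gave 2903 far K27M-Tag-only regions, 7.86% of 36940 far regions, and 330 far WT-Tag-only regions. With the same number of top-scoring peaks taken from each FLAG list, 719 far K27M-Tag-only regions, 2.83% of 25425 far regions, and 950 far WT-Tag-only regions remained. The order of the 2 counts thus reversed. K27M-Tag lists spent more of their peaks near H3K4me3: far peaks were 31.4%, 27.9% and 33.2% of the K27M-Tag lists and 33.6%, 38.1% and 39.5% of the WT-Tag lists. When the same number of far peaks, 10907, was taken from each list instead, an alternative added after seeing the data, the counts were 1249 and 680. The 1249 were 4.52% of 27632 far regions. A common p limit, at which the lists start equally, left the counts at 2720, or 5.82% of the far regions, and 453. Leaving out K27M-Tag replicate 2, the shortest K27M-Tag list, raised the far K27M-Tag-only count to 5913, or 12.8% of the far regions. Leaving out WT-Tag replicate 1, the shortest WT-Tag list, raised the far WT-Tag-only count to 1638.

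The regions just outside the choice were more numerous than those inside it. Another 4448 far regions had a peak in 2 K27M-Tag lists and in no WT-Tag list, and K27M-Tag replicate 2 was the list without one in 3071 of these. A further 1768 far regions had a peak in all 3 K27M-Tag lists and in 1 WT-Tag list, which was WT-Tag replicate 2 in 843, replicate 3 in 659 and replicate 1 in 266. At the distance limit, 88 K27M-Tag-only regions lay 5001 to 5500 bp from H3K4me3 and 81 lay 4501 to 5000 bp away. Their median folds in K27M-Tag replicates 1 to 3 were 4.57, 4.38 and 4.78 just inside and 4.38, 4.34 and 4.57 just outside. The members closest to the limit were chr4:134113799-134114844, at 5005 bp, with folds of 5.25, 4.15 and 4.34, and chr8:14689516-14690343, at 5019 bp, with folds of 4.09, 3.19 and 4.34. On the other side were chr14:76425564-76426219, at 4999 bp, with folds of 4.33, 4.38 and 3.26, and chr2:148682311-148683208, at 4995 bp, with folds of 3.74, 3.89 and 3.64. Regions on both sides of the limit were therefore of like height.

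The far K27M-Tag-only regions were short and of middling height in their own lists. Their merged length had a median of 654.5 bp, with quartiles of 496 and 884 bp and a longest region of 2714 bp, and together they spanned 1.99 Mb. A single peak in each K27M-Tag list made up 2066 of them, or 75.7%. The deposited fold enrichment is the authors' ratio of the summit to its local background, with 1 added to both. It had medians of 4.60, 4.38 and 4.78 in K27M-Tag replicates 1 to 3. The peaks stood at median percentiles of 56.0, 41.2 and 59.5 when all autosomal peaks of the list were ranked by score. These peaks thus spread around the middle of each list, lowest in replicate 2, and only 102 regions, or 3.74%, lay above the 75th percentile in all 3 lists.

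Within the regions, the summits of the 3 K27M-Tag cultures could lie no farther apart than the merged length allows. The outermost of the 3 summits lay a median of 179.5 bp apart, and all 3 lay within 200 bp in 54.7% of regions and within 500 bp in 91.1%. Across the 2728 regions the Spearman correlation of fold between cultures was 0.31, 0.40 and 0.33 for replicates 1 and 2, 1 and 3, and 2 and 3. Over the 3056 far regions in all 6 lists it was 0.59, 0.62 and 0.60, and over K27M-Tag-only regions on H3K4me3 0.41, 0.47 and 0.44. These correlations run over regions, which are not independent replicates, and the far K27M-Tag-only regions had a narrower middle range of folds than the far regions in all 6 lists.

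A missing WT-Tag peak means a signal under the WT-Tag limit, not an absence of signal. At the background coverage, the lowest summit that was called in WT-Tag replicates 1 to 3 stood at 12 fragments in each list, which is 3.88, 3.48 and 3.61 times the background coverage. In K27M-Tag replicates 1 to 3 this limit was 3.48, 3.90 and 3.33 times, so the limits of the 2 genotypes overlapped. The summits of the far K27M-Tag-only regions had medians of 20, 19 and 22 fragments, or 6.33, 5.69 and 6.10 times the background coverage of their K27M-Tag list. In 708 regions, or 26.0%, the summit was at least 1.5 times the highest of the 3 WT-Tag limits in every K27M-Tag culture, and in 61 regions, or 2.24%, at least 2 times. Most of these regions therefore stood above the WT-Tag limit by less than 1.5 times in at least 1 culture.

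The local background that enters the fold and p also differed between the lists. Among far FLAG peaks it exceeded 1.5 times the background coverage at 8.92%, 5.34% and 6.28% of peaks in K27M-Tag replicates 1 to 3 and at 13.4%, 10.3% and 17.1% in WT-Tag replicates 1 to 3, with no overlap of the ranges. A higher local background raises the summit that a peak needs to be called. Its part in the count of far K27M-Tag-only regions was not tested. At the far K27M-Tag-only regions themselves, the share was 6.78%, 3.67% and 4.00% in the K27M-Tag lists.

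Among regions found only in K27M-Tag, those far from H3K4me3 were lower and narrower than those on H3K4me3. Both sets meet the same condition on the FLAG lists and differ in their distance to H3K4me3, and they were compared within each culture. The values come from the same peaks that met the condition, so the test is not independent of the choice. Overlap with H3K4me3 was judged on the merged region. A wider region overlaps more easily, so the width difference is tied to how the sets were sorted. The median fold was 4.60, 4.38 and 4.78 far from H3K4me3 and 5.04, 4.61 and 5.00 on it, a mean difference of -0.296 ± 0.125 (SD, n = 3). The median width of the peaks was 418, 340 and 460 bp against 510, 405 and 552 bp, a difference of -83.0 bp ± 15.6 (SD, n = 3). The far peaks were lower and narrower in 3 of 3 cultures. This was not particular to the far regions: K27M-Tag-only regions 1 to 5000 bp from H3K4me3 had median folds of 4.57, 4.26 and 4.56 and widths of 403, 325 and 426 bp, no higher or wider than the far ones. The median percentile differed by -6.37, -8.95 and -8.13 points in the same direction. In the two-sided exact permutation test over sign flips each of the 3 measures gave p = 0.25 (0.25 after adjustment over the 3), the smallest p that 3 cultures allow.

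Far regions with a peak in all 6 lists were higher and wider in the same K27M-Tag lists. Their median folds were 5.77, 5.11 and 6.05 and their median widths 731, 588 and 810 bp. A region that must lack a WT-Tag peak is held to lower signal by the choice itself, so no test is given. The far WT-Tag-only regions had median folds of 4.28, 4.27 and 4.39 and widths of 248, 326 and 341 bp in the WT-Tag lists.

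**Figure D2:**
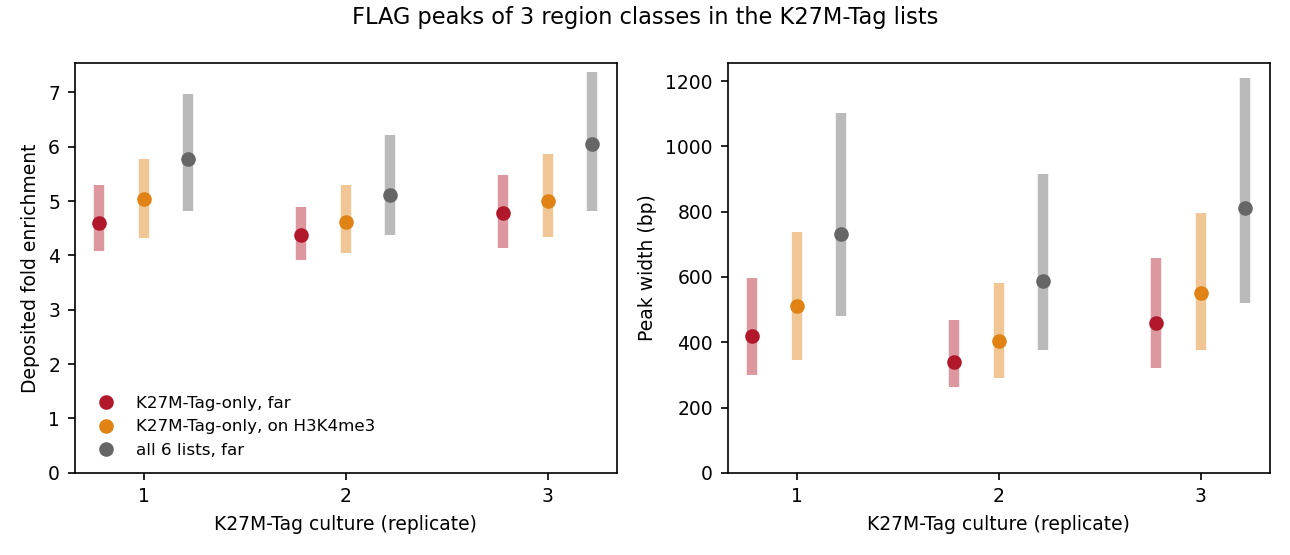
Deposited fold enrichment (left) and peak width in bp (right) in the 3 K27M-Tag FLAG lists, for the highest-scoring peak of each region, with points at the median and bars from the lower to the upper quartile. In each culture the far K27M-Tag-only regions (red) had the lowest median, followed by K27M-Tag-only regions on H3K4me3 (orange) and far regions in all 6 lists (grey).

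The strongest of the far K27M-Tag-only regions reached folds of 6 to 10. They are ordered here by the lowest of their 3 within-list percentiles. The first, chr4:117663103-117664941, had folds of 8.89, 8.07 and 8.69 and summits of 36, 34 and 39 fragments in K27M-Tag replicates 1 to 3. The second, chr15:73261484-73263951, had folds of 8.71, 7.69 and 8.69 and summits of 37, 34 and 41 fragments. In both regions the 3 cultures gave nearly the same height, with summits within 52 and 27 bp of each other. They also lay close to the distance limit, at 5148 and 5527 bp from H3K4me3, and at 4617 and 4163 bp from the nearest WT-Tag FLAG peak.

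The third, chr2:166000428-166002714, had the highest single fold of the set, 10.3 in replicate 1, with 7.34 and 7.68 in replicates 2 and 3. It lay 3481 bp from the nearest WT-Tag FLAG peak. The fourth, chr2:124744770-124747055, had folds of 7.91, 7.61 and 7.82 and lay 59500 bp from H3K4me3 and 30216 bp from any WT-Tag FLAG peak. The fifth, chr14:16617402-16618269, was the most isolated of the leading ones, at 345483 bp from H3K4me3 and 366926 bp from any WT-Tag FLAG peak, with folds of 8.41, 7.15 and 7.82. Distance to H3K4me3 thus ranged widely even among the 5 regions above the 90th percentile in all 3 lists. The sixth to eighth were chr15:36328024-36330558 (folds 7.45, 6.92 and 7.39), chr1:61577871-61578636 (6.85, 6.21 and 7.17) and chr6:56297524-56298993 (7.93, 7.38 and 6.61). They lay 2661, 791 and 13879 bp from the nearest WT-Tag FLAG peak. For comparison, the top far WT-Tag-only region, chr11:67332156-67332894, had folds of 6.11, 6.86 and 7.16 in the WT-Tag lists.

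The widest of them overlapped with the strongest. The regions on chromosome 2 at 124744770 and 166000428 and on chromosome 15 at 73261484 and 36328024 were 4 of the 5 with the largest mean covered length, at 2005, 1928, 1959 and 1766 bp. The other was chr1:196546094-196548555, covered over 1739, 1575 and 2296 bp, with folds of 6.01, 6.69 and 8.25. A typical region looked different: the one in the middle of the order, chr1:128064095-128064636, was covered over 412, 397 and 472 bp with folds of 4.09, 4.84 and 4.13. It lay 517 bp from the nearest WT-Tag FLAG peak.

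Far K27M-Tag-only regions lay farther from H3K4me3 than far regions in all 6 lists and far WT-Tag-only regions. Their median distance to the nearest H3K4me3 peak of any list was 20555 bp, with quartiles of 10547 and 43133 bp. It was 15258 bp for far regions in all 6 lists, 14578 bp for far WT-Tag-only regions and 17027 bp for all far FLAG regions. The distances above 5000 bp were not used to choose the regions, but the classes come from the same FLAG lists, so they are given without a test. The 3 most remote were chr12:6629334-6629641, at 1211479 bp, chr17:40252620-40253399, at 761779 bp, and chr18:26912059-26912464, at 737882 bp. The nearest WT-Tag FLAG peak to these 3 regions lay 512, 818352 and 923878 bp away. Their folds over the 3 cultures were 4.34 to 4.61, 5.53 to 6.30 and 4.60 to 5.30. The region on chromosome 17 lay above the upper quartile of the set in each culture (5.29, 4.89 and 5.48).

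Beyond 5000 bp, the share of FLAG regions found only in K27M-Tag rose with distance, while the WT-Tag-only share and the share in all 6 lists fell. Closer in, the order was different: the K27M-Tag-only share was highest on H3K4me3, at 19.3%, and 5.48% at 1 to 5000 bp, where the WT-Tag-only share was 0.0582% and 0.635%. Among the far regions the K27M-Tag-only share was 4.94% of the 12766 FLAG regions at 5001 to 10000 bp, 5.09% at 10001 to 20000 bp, 6.21% at 20001 to 50000 bp, 7.96% at 50001 to 100000 bp and 8.44% of the 2370 beyond 100000 bp. Over the same steps the far WT-Tag-only share went from 1.17% to 0.506% and the share in all 6 lists from 7.29% to 5.15%. For each region found only in WT-Tag there were 4.23 found only in K27M-Tag in the nearest of these steps and 16.7 in the farthest. The height and width of the peaks changed little over these steps. The median fold in K27M-Tag replicates 1 to 3 was 4.57, 4.31 and 4.66 at 5001 to 10000 bp, 4.70, 4.38 and 4.79 at 50001 to 100000 bp and 4.57, 4.38 and 4.78 beyond. The median width in the same steps was 410, 325 and 447 bp, then 426, 351.5 and 489.5 bp, then 410.5, 350.5 and 470.5 bp.

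With equal numbers of far peaks from each list, the K27M-Tag-only share went from 3.42% to 6.74% and the WT-Tag-only share from 3.12% to 1.48%. With equal list sizes, they went from 2.18% to 3.81% and from 4.78% to 1.86%. WT-Tag-only regions were then the more numerous in each step from 5001 to 50000 bp, and K27M-Tag-only regions beyond 50000 bp. In each of the 6 sets that left out 1 FLAG library the K27M-Tag-only share was also higher beyond 100000 bp than at 5001 to 10000 bp. Between these end points the share dipped at the last step with equal list sizes, from 4.21% to 3.81%, and without K27M-Tag replicate 1, from 11.9% to 11.8%.

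**Figure D3:**
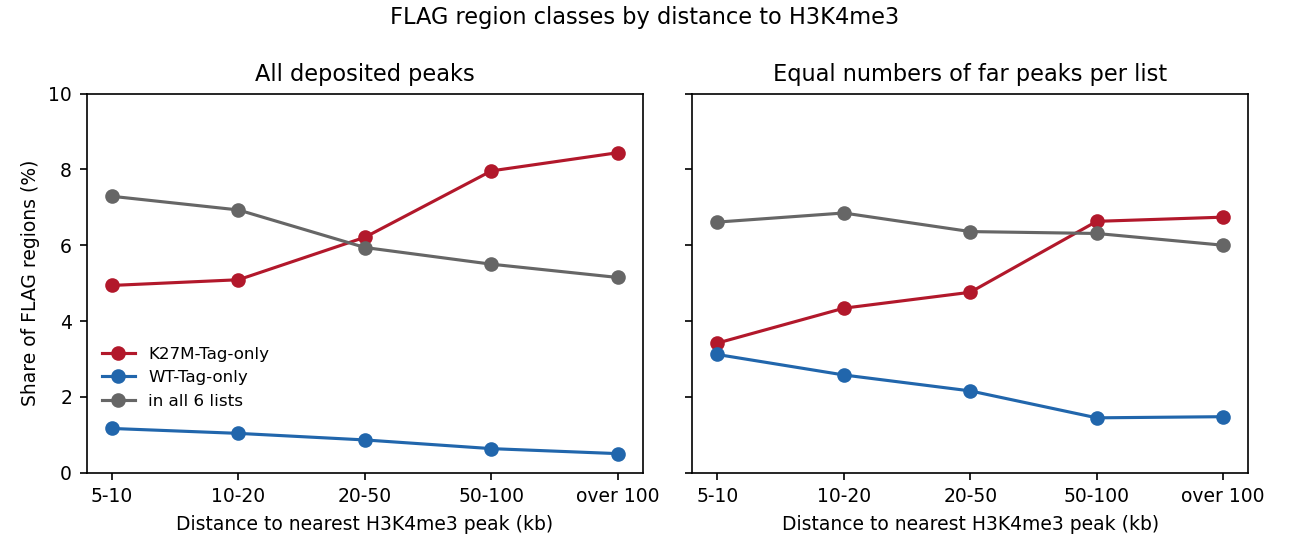
Share of FLAG regions, in percent, that were K27M-Tag-only (red), WT-Tag-only (blue) or in all 6 lists (grey), by distance to the nearest H3K4me3 peak in kb, with all peaks (left) and with 10907 far peaks per list (right). The red line climbs from 4.94% to 8.44% on the left and from 3.42% to 6.74% on the right, while the blue line ends lower than it starts in both.

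The single lists showed the same lean toward remote positions. More than 50000 bp from H3K4me3 lay 3757 of 24244, 2537 of 15892 and 4923 of 28942 far FLAG peaks in K27M-Tag replicates 1 to 3. In WT-Tag replicates 1 to 3 they were 1038 of 10907, 2050 of 17879 and 2088 of 18343. At equal numbers of far peaks the shares were 16.4%, 16.4% and 17.8% for the K27M-Tag lists, against 9.52%, 11.5% and 12.4% for the WT-Tag lists, so the 3 K27M-Tag lists were all above the 3 WT-Tag lists. These shares come from the contrast that chose the regions and were looked at after the gradient had been seen, so they are a description.

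H3K4me3 peaks were found near the far K27M-Tag-only regions more often in the K27M-Tag cultures. Within 20 kb, an H3K4me3 peak was present at 41.9%, 40.0% and 43.3% of the regions in K27M-Tag replicates 1 to 3 and at 31.9%, 34.9% and 33.1% in WT-Tag replicates 1 to 3. All 3 K27M-Tag lists lay above the WT-Tag lists. The means were 41.7% ± 1.66 (SD, n = 3) and 33.3% ± 1.50 (SD, n = 3), a difference of 8.41 percentage points (two-sided exact permutation p = 0.1, the smallest that 3 against 3 allows). The 6 H3K4me3 lists entered the distance rule alike. The regions were, however, chosen by genotype from the FLAG lists of the same 6 cultures, so this comparison is not independent of the choice.

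The longer H3K4me3 lists of the K27M-Tag cultures moved with this difference. With 30884 H3K4me3 peaks from each list it was 4.15 points, from 37.7%, 37.4% and 36.6% against 31.9%, 34.3% and 33.1%, still with no overlap (exact permutation p = 0.1). Far regions in all 6 FLAG lists showed a like difference, 7.14 points with all peaks and 2.97 with equal lists. The difference was 1.26 points larger at the far K27M-Tag-only regions than there, within the spread between lists (exact permutation p = 0.2). With equal lists it was 1.19 points larger (exact permutation p = 0.3). The FLAG contrast in the same cultures chose the far K27M-Tag-only regions, so these tests are not independent of the choice. At the far WT-Tag-only regions H3K4me3 differed by 3.26 points. The difference at the far K27M-Tag-only regions was larger by 5.15 points, with no overlap of the lists. With equal lists, H3K4me3 differed at the far WT-Tag-only regions by 0.370 points, and the gap to the far K27M-Tag-only regions was 3.78 points. Opposite FLAG contrasts in the same cultures chose these 2 sets, so this comparison is only a description.

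**Figure D4:**
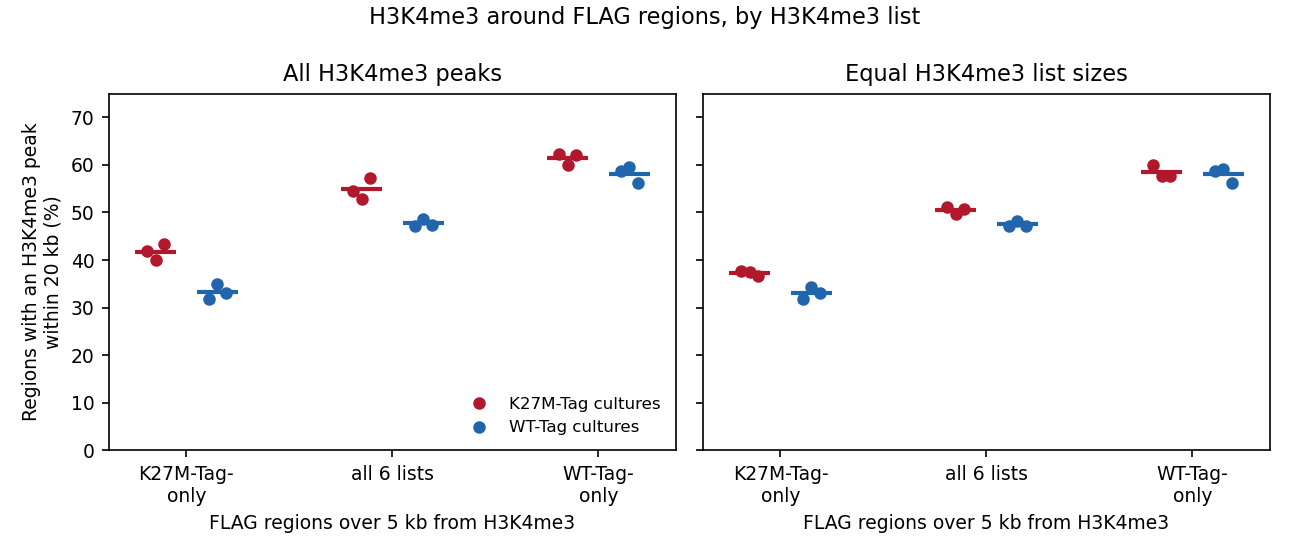
Share of far FLAG regions, in percent, with an H3K4me3 peak within 20 kb in each K27M-Tag (red) and WT-Tag (blue) H3K4me3 list, with all peaks (left) and equal list sizes (right). Points are cultures and lines their means. At the K27M-Tag-only regions the red points lie above the blue ones in both panels, and at the WT-Tag-only regions they overlap on the right.

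The nearest H3K4me3 region was itself found only in K27M-Tag for 199 of the 2728 far K27M-Tag-only regions, or 7.29%. This share was 4.06% for far regions in all 6 FLAG lists and 3.11% for far WT-Tag-only regions, and such regions were 4.41% of all 41556 H3K4me3 regions. An H3K4me3 region present in all 6 lists was the nearest for 43.2%, 48.5% and 52.4% of the 3 classes in the same order. These shares are descriptions over regions.

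WT-Tag FLAG peaks were often in the neighbourhood. The nearest WT-Tag FLAG peak of any list lay a median of 10118 bp away, and it was within 500 bp for 307 regions, or 11.3%, and within 5000 bp for 971, or 35.6%. For these regions the K27M-Tag peak stood beside, not on, a WT-Tag peak. At the other end, 485 regions, or 17.8%, were more than 50000 bp from any WT-Tag FLAG peak. Far WT-Tag-only regions were closer to the other genotype: 60.9% had a K27M-Tag FLAG peak within 5000 bp and 2.00% had none within 50000 bp. The longer K27M-Tag lists leave less room without a peak, and their part in this difference was not tested.

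Most far K27M-Tag-only regions stood alone. Chained across gaps of at most 20 kb, 2130 of them, or 78.1%, had no other of their kind nearby, and there were 232 pairs, 35 groups of 3, 3 of 4, 2 of 5 and 1 of 7. For far regions in all 6 lists 69.3% were alone, and for far WT-Tag-only regions 88.9%, in sets of 3056 and 450 regions.

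The group of 7 lay on chromosome 6, chr6:91189441-91225596, over 36.2 kb. Its peaks covered 3201, 3915 and 5270 bp in K27M-Tag replicates 1 to 3, with folds from 3.78 to 7.49, 3.33 to 4.70 and 3.34 to 5.65. The interval held 31 FLAG regions in all, 10 of them with a WT-Tag peak and 0 in all 6 lists. The next group, chr13:54345180-54365380, had 5 members among 9 FLAG regions, and none of the 9 had a WT-Tag peak, although a WT-Tag peak lay 243 bp from a member. Its folds ran from 3.82 to 4.32, 3.33 to 5.07 and 3.21 to 6.08. The other group of 5, chr2:165987446-166005775, surrounded the third-ranked region and held 11 FLAG regions, of which 2 were present in all 6 lists.

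Every autosome held far K27M-Tag-only regions, from 74 on chromosome 19 to 233 on chromosome 1. Their density was 1.14 per Mb over the 19 autosomes and ran from 0.896 on chromosome 14 to 1.38 on chromosome 11. Far regions in all 6 lists varied more, from 0.801 per Mb on chromosome 3 to 2.18 on chromosome 11. The far K27M-Tag-only regions were 7.08% of the far FLAG regions on chromosome 3 and 4.44% on chromosome 11, beside 5.82% overall. Cut into 10 equal stretches, the stretch at the distal end of the chromosomes held 12.9% of the far K27M-Tag-only regions, close to the 13.2% of all far FLAG regions, and 14.4% of the far regions in all 6 lists and 17.1% of the far WT-Tag-only regions. The far K27M-Tag-only regions had their highest share, 13.2%, in the seventh stretch, which held 11.3% of all far FLAG regions.

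**Figure D5:**
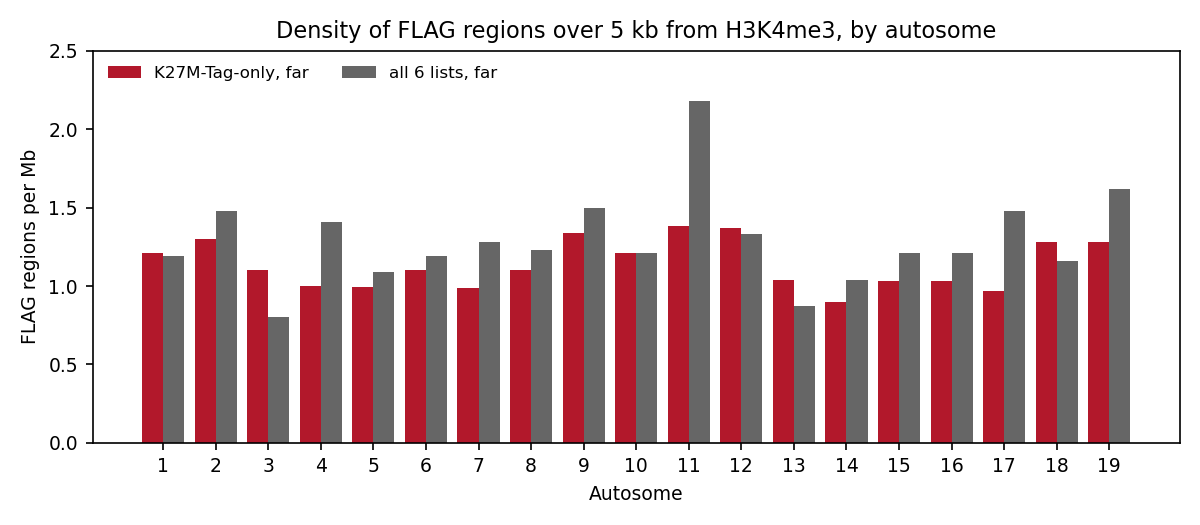
FLAG regions more than 5 kb from H3K4me3 per Mb of each autosome, for K27M-Tag-only regions (red bars) and regions in all 6 lists (grey bars), over the extent from the first to the last FLAG peak. The red bars stay between 0.896 and 1.38 per Mb, while the grey bars run from 0.801 to 2.18.

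Chromosome X was left out of the choice of regions. Under the same rule it held 40 K27M-Tag-only regions among 462 FLAG regions more than 5000 bp from H3K4me3, or 8.66%. It held 1 WT-Tag-only region among the same 462, or 0.216%, and 5 regions in all 6 lists. The male culture, WT-Tag replicate 3, has a single X chromosome, and the part of this in the counts was not tested.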

How the data were processed

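The data are 12 deposited peak lists in narrowPeak order, 1 per library. The authors' lists give a score, a fold enrichment (ratio), a −log10 p and a −log10 q per peak, and the deposited score is about 10 times the −log10 q. The submitters' processing notes name BWA 0.7.17-r1188, MACS2 2.2.7.1 and bedtools 2.29.2, without roles. The control, filters and threshold are not given in the sources used here, and neither are factors from the Drosophila spike-in. The 2 input samples, each joined from several cultures, were not analysed here. Because each library has its own list, absence of a peak depends on that list's limit.

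Peaks were merged with own code (Python 3.11.15, numpy 2.4.6, pandas 2.3.3, scipy 1.17.1), tested on simulated lists in which all 300 planted regions were found. Summit pileups were recovered as the whole number that gives both the deposited fold and p within a relative error of 0.0001. The fold was taken as a ratio with 1 added to summit and background. Summits given as times the background coverage are without this addition. Each region took its highest-scoring peak per list. Exact permutation tests were two-sided. The labels' experiment numbers were not used as pairs. The members and the comparisons were chosen with earlier results of these data known. Regions named are the 8 highest by lowest percentile, the 5 widest, the 3 most remote, the 3 largest groups, the median one, the top WT-Tag-only one and the 2 on each side of 5000 bp. Gene names, motifs and sequences were planned only for an annotation or genome of build mm9 and are not reported here. Nothing says that the cultures came from separate embryos, so p-values refer to these cultures only. A p at the smallest possible value records only that the groups did not overlap or that all signs agreed.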

Additional observations from a re-analysis of the deposited data

How the results depend on the processing

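The number of far K27M-Tag-only regions, 2728, moved by more than 1.5 times under 4 of 22 alternatives. It was 719 with equal list sizes and 1249 with equal numbers of far peaks. It was 1468, or 3.13% of the far regions, when the peaks of each K27M-Tag list had to cover at least 50% of the region. Without FLAG K27M-Tag replicate 2 it was 5913, the end of a leave-one-out range that starts at 2735. The excess over far WT-Tag-only regions, 2278, became -231 with equal list sizes, 569 with equal numbers of far peaks and 1264 with the 50% cover, and ran from 1360 without FLAG WT-Tag replicate 1 to 5409 without FLAG K27M-Tag replicate 2. Shorter lists and fewer libraries change these counts by construction, and beyond that the cause was not tested. The equal numbers of far peaks, the 50% cover and a common limit on summit pileup were added after seeing the data. The overlap rule of 50% of the shorter interval changes nothing, since a peak lies within its region. Of the 719 regions at equal list sizes, 503 (70.0%, and 18.4% of the 2728) overlapped a far K27M-Tag-only region of the full lists, and 215 had held a WT-Tag peak.

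The difference in H3K4me3 within 20 kb kept its direction under its 10 alternatives, from 4.15 with equal list sizes to 9.29 without H3K4me3 K27M-Tag replicate 2, and from 7.64 upward over the sets that left out 1 list. The replicate block, which pairs cultures by experiment number, left 8.41 points (exact permutation p = 0.25). Deviations of same-numbered cultures correlated at 0.03, 0.03 and -0.01 over 21864 H3K4me3 regions, and the experiment numbers were not taken as pairs. These correlations cannot show whether the experiment numbers mark a shared batch. Fold, width and percentile against regions on H3K4me3 kept their direction in all 6 alternatives each. With 3 cultures no test here can pass 0.05, so p-values say nothing on stability.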
